A study of Mus musculus with 7 samples.

Results

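The protocadherin genes are described here by their H3K9me3 peaks, where H3K9me3 stands for histone H3 trimethylated at lysine 9, a mark of silent chromatin. Members were the autosomal genes whose symbol starts with Pcdh in GENCODE M1, the annotation of the mouse genome build NCBIM37 (mm9), which gave 36 of 34653 autosomal genes. Of these, 25 were clustered genes of the alpha, beta and gamma arrays on chromosome 18, and 11 were non-clustered. This annotation gathers most alpha isoforms under 1 entry named Pcdha11 and the gamma isoforms under 1 entry named Pcdhgc5, each with 10 transcripts, so the 25 clustered members are mostly the single-exon genes Pcdhb1 to Pcdhb22. The non-clustered members were Pcdh1, Pcdh7, Pcdh8, Pcdh9, Pcdh10, Pcdh12, Pcdh15, Pcdh17, Pcdh18, Pcdh20 and a pseudogene entry that also bears the name Pcdh15 and lies inside the Pcdh15 gene. Pcdh1 and Pcdh12 are on chromosome 18 too, outside the arrays.

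The study holds 7 samples of ChIP-seq, the sequencing of immunoprecipitated chromatin, of which 4 are H3K9me3 libraries and 3 are inputs, and the 2 used here are the H3K9me3 libraries of Setdb1 cKO iMEFs, WT and KO. These are immortalized mouse embryonic fibroblasts from a line recloned from a single cell, in which the gene of the H3K9 methyltransferase Setdb1 can be deleted. WT cells were left untreated, and KO cells received 4-hydroxytamoxifen (4OHT), which sets off the deletion, for 4 days and were harvested on day 7. Each group had 1 library, so 4OHT itself, the deletion and the library cannot be told apart, replicate error is unknown and no tests were made. The peak lists held 23190 peaks in WT and 3775 in KO, of which 21957 and 3668 were autosomal.

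Protocadherins are cell-surface adhesion proteins of the cadherin superfamily, known chiefly from the nervous system. In the clustered arrays each variable exon has its own promoter, and neurons express different combinations of them, which gives each cell an adhesive identity. Non-clustered protocadherins are single genes, often very long, and include the delta protocadherins of the developing brain and Pcdh15, a component of the tip link of inner-ear hair cells. H3K9 methylation by Setdb1 is known as a way of silencing genes and retroelements in heterochromatin and in euchromatin.

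The sequences under 6 of the peaks at Pcdh8, Pcdh9 and Pcdh15 are shown, because they are the kinds of sequence on which the mark was called at these genes: a CpG-rich first exon and its upstream region, a neighbouring pair of WT and KO peaks in unique intronic sequence, and the tallest WT and KO peaks of the longest member. All are on the plus strand of mm9, and capitals mark CpG dinucleotides.
Pcdh8 first exon, WT peak, chr14:80170787-80170885: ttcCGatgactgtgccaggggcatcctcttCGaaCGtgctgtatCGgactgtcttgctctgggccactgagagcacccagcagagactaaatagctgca
Pcdh8 upstream, WT peak, chr14:80172142-80172254: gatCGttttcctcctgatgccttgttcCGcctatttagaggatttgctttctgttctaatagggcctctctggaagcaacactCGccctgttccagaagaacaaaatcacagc
Pcdh9 intron, WT peak, chr14:94216970-94217085: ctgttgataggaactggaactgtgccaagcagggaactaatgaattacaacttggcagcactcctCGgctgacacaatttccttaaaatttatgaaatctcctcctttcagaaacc
Pcdh9 intron, KO peak, chr14:94222566-94222635: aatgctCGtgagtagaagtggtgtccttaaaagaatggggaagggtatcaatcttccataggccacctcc
Pcdh15 intron, WT peak, chr10:73708510-73708744: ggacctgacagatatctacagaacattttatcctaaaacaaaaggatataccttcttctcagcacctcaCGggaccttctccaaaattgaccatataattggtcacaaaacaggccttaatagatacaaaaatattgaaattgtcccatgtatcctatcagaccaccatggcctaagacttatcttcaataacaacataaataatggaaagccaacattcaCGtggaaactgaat
Pcdh15 intron, KO peak, chr10:73874724-73874800: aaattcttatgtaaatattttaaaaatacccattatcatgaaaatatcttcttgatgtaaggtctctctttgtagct

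In WT iMEFs, 12 of the 36 protocadherin genes had a peak in the gene body or within 5 kb of it, which was 33.3% (Wilson 95% interval 20.2 to 49.7) against 10.7% of all autosomal genes. In KO iMEFs 3 of 36 had one, 8.33% (2.87 to 21.8) against 2.72%. These intervals, like all others given here, cover counting error only. The genes with a WT peak were Pcdh7, Pcdh8, Pcdh9, Pcdh15 and its pseudogene entry, Pcdh17, Pcdha11, Pcdhb17, Pcdhb18, Pcdhb19, Pcdhb22 and Pcdhgc5. Those with a KO peak were Pcdh7, Pcdh9 and Pcdh15, all long non-clustered genes. Restricting both lists to scores (−log10 of the q-value) at or above the WT median of 3.04 left 7 genes with a WT peak and 3 with a KO peak.

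Long genes have more room for a peak, so the counts are set beside those of all autosomal genes of the same length class. Under 10 kb, 6 of 26 members had a WT peak, or 23.1% (11.0 to 42.1), against 6.36% of all such genes, and 0 of 26 had a KO peak against 1.77%. From 10 to 100 kb, 1 of 5 had a WT peak against 11.8%, and 0 of 5 a KO peak against 2.33%. From 100 to 500 kb, which holds Pcdh7, Pcdha11 and Pcdhgc5, 3 of 3 had a WT peak (43.9 to 100%) against 38.7% and 1 of 3 a KO peak against 9.98%. Pcdh15 and Pcdh9 are over 500 kb, where 2 of 2 had WT and KO peaks against 83.3% and 42.2%. In the shortest class the interval of the WT share lay above the share of the class. From 100 to 500 kb it did too, but on only 3 genes. Of these, Pcdha11 and Pcdhgc5 each gather the isoforms of an array, so little can be read from that class. The 6 short genes are not independent, since Pcdhb17, Pcdhb18 and Pcdhb19 share 2 peaks and the pseudogene entry shares 1 peak with Pcdh15.

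**Figure D1:**
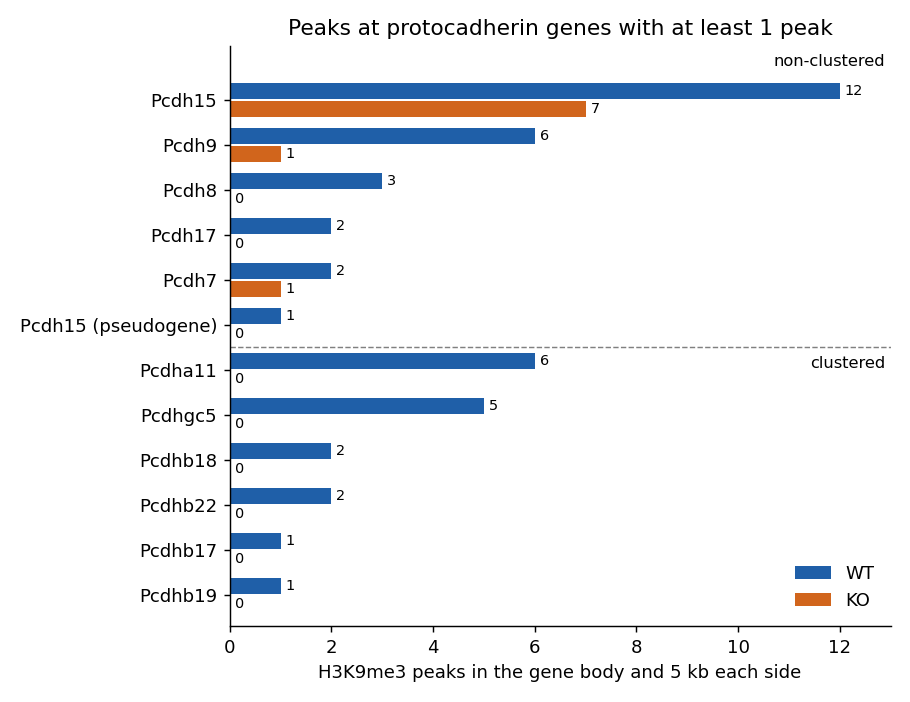
Number of H3K9me3 peaks (horizontal axis) in the body and 5 kb on each side of each protocadherin gene with at least 1 peak, in WT (blue) and KO (orange) iMEFs, with 1 library each. Pcdh15 had 12 WT and 7 KO peaks, the other KO peaks were 1 at Pcdh9 and 1 at Pcdh7, and no clustered gene had a KO peak; a peak near several genes is counted at each.

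Counted once each, 40 WT peaks and 9 KO peaks lay in the merged windows of the members. In the 0.648 Mb of the clustered genes there were 15 WT peaks, 23.2 per Mb (exact Poisson 95% interval 13.0 to 38.2), and 0 KO peaks, which allows up to 4.63 per Mb. In the 3.15 Mb of the non-clustered genes there were 25 WT peaks, 7.93 per Mb (5.13 to 11.7), and 9 KO peaks, 2.85 per Mb (1.31 to 5.42). Autosomes as a whole had 9.17 WT and 1.53 KO peaks per Mb. With all WT peaks counted, the density over the clustered genes was thus above that of the non-clustered genes, with intervals that did not overlap. The WT median score was reached by 3 peaks in Pcdha11, 1 in Pcdhgc5 and 0 in the beta genes. Among the non-clustered genes it was reached by 6 in Pcdh15, 2 in Pcdh9, 1 each in Pcdh7 and Pcdh8, and 0 in Pcdh17. Densities of these peaks alone were not compared. The intervals also take peaks as independent, whereas autosomal stretches as long as the clustered locus held a median of 6 and up to 201. In KO the 0 peaks of the clustered genes could not be told from the autosomal density at this length. Without Pcdh15 the non-clustered genes had 8.16 WT peaks per Mb but only 2 KO peaks, 1.26 per Mb, so their KO density rested mainly on that gene.

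None of the 40 WT peaks and none of the 9 KO peaks at these genes overlapped a peak of the other list. A count of 0 allows up to 7.5% of 40 and 33.3% of 9, and over all autosomal peaks 2.34% of those in WT and 15.2% of those in KO overlapped the other list, so a difference from the background was not detectable with so few peaks. The nearest WT and KO peaks at these genes, the pair in Pcdh9 whose sequences are shown, were 5.48 kb apart. From the KO peaks the nearest WT peak was at a median of 45.3 kb, with a range of 5.48 to 112 kb, whereas the median over all autosomal KO peaks was 8.15 kb. From the WT peaks the nearest KO peak was at a median of 118 kb, against 204 kb over all autosomal WT peaks. All 9 KO peaks at protocadherin genes were thus at sites without a WT peak, and 8 of them were further from one than the 8.15 kb. Since 7 of the 9 lay in Pcdh15, the distances from KO peaks describe mainly that gene.

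The peaks at these genes were weak ones. Their WT pileup, the number of fragments stacked at the highest point, ran from 9 to 16 with a median of 9, the lowest value in the list, against an autosomal median of 10. At this lowest value were 26 of the 40, or 65.0% (49.5 to 77.9), against 43.1% of autosomal WT peaks, and only 1 reached a pileup of 15. The 9 KO peaks had pileups of 9 to 12. With the WT list shortened to its best-scoring peaks, as many as the KO list holds, 2 protocadherin genes and 3 WT peaks were left. The comparisons of WT with KO numbers therefore depend on the unequal lengths of the lists.

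**Figure D2:**
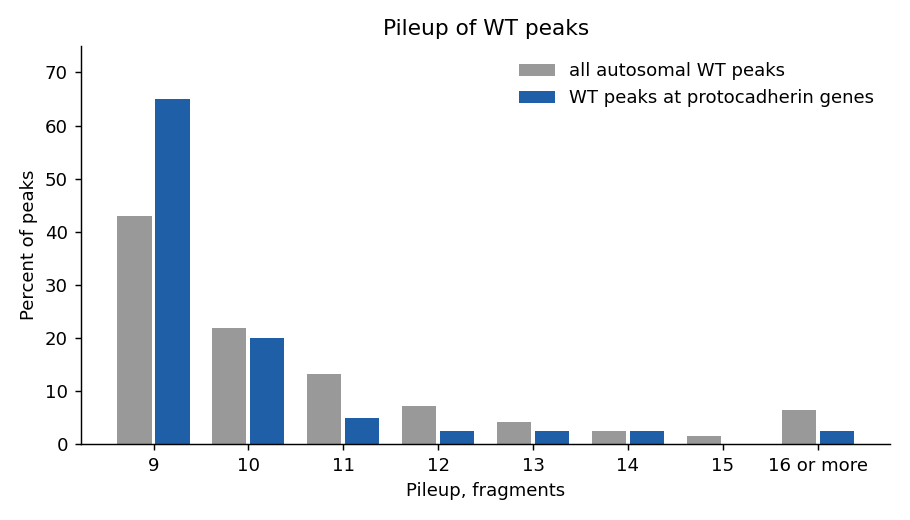
Share of WT peaks (vertical axis, percent) at each pileup in fragments (horizontal axis) for all autosomal WT peaks (grey) and the 40 WT peaks at protocadherin genes (blue). At the lowest pileup, 9, are 65.0% of the protocadherin peaks and 43.1% of all.

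In WT, peaks at protocadherin genes lay on unique sequence more often than autosomal peaks in general. The median copy number of the 31-mers of a peak, the number of places where each 31-base stretch occurs in the genome, was 1 at 23 of the 40 WT peaks, or 57.5% (42.2 to 71.5), against 29.6% of autosomal WT peaks. The autosomal peaks were taken at any distance from genes. Of the 21957, only 7230 lay within 5 kb of a gene, and the share among these alone was not taken. In the clustered genes the copy number was 1 at 11 of 15 peaks and in the non-clustered genes at 12 of 25. Of the 9 KO peaks, 8 were single-copy, the exception being that in Pcdh7, with an interval of 56.5 to 98.0% that held the 57.7% of autosomal KO peaks. The 15 WT peaks with over 1000 copies each shared a 31-mer with 23 to 2767 other WT peaks, with a median of 296.

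The clustered locus runs from the first alpha start to the end of the gamma array, chr18:37089939-38001527 in mm9. With 5 kb added on each side it spans 922 kb. Over this whole span, including the stretches between members, there were 28 WT peaks, 30.4 per Mb (20.2 to 43.9), and 2 KO peaks. When the autosomes were divided into tiles of the same length, 2.62% of the 2673 tiles held at least as many WT peaks, with a median of 6 and a maximum of 201 per tile. The WT density of the locus was 3.31 times that of the autosomes, a count that 70 tiles reached. The ratio was 6.79 among single-copy peaks, of which 17 lay in the locus, and 2.36 among peaks with a score at or above the WT median. With the shortened WT list 1 peak was left and the ratio turned to 0.735, and at a pileup of at least 15 there was none.

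Within the locus the peaks were spread unevenly. The alpha array held 6 WT peaks in 257 kb and the gamma array 5 in 168 kb, with 0 KO peaks in either. The beta array held 4 WT peaks and 1 KO peak in 256 kb. The 153 kb between the beta and gamma arrays held 12 WT peaks, 78.5 per Mb, and 1 KO peak, and only 2 of these WT peaks were within 5 kb of a member, Pcdhb22. In the 100 kb before the locus were 11 WT peaks, and in the 344 kb from the gamma array to Pcdh1 there was none. These stretches were delimited after the peaks had been seen. Neither KO peak of the locus was within 5 kb of a member, the nearest member being Pcdhb15 at 7.66 kb, and neither was on single-copy sequence.

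**Figure D3:**
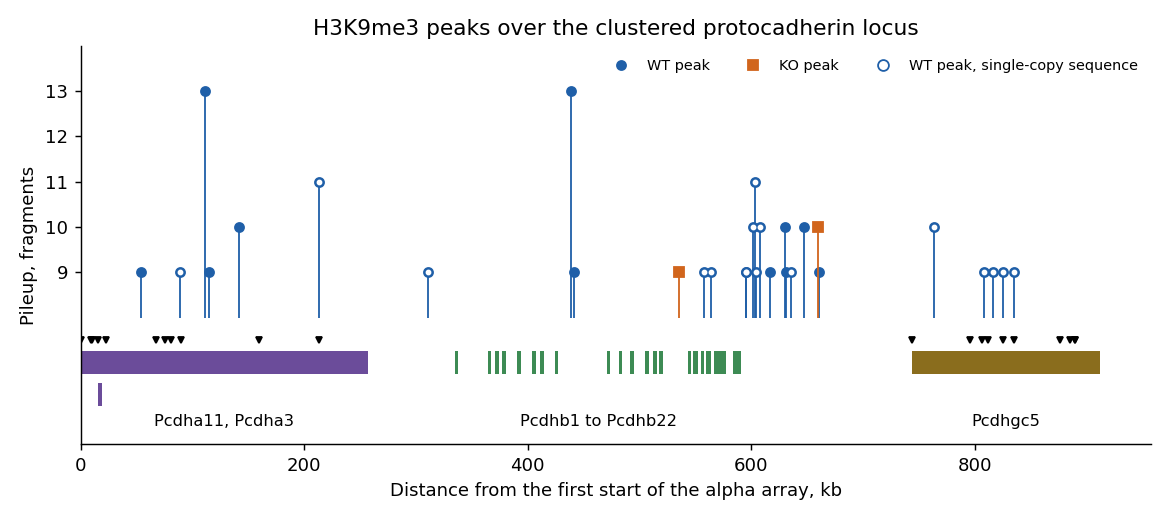
H3K9me3 peaks over the clustered locus, with distance from the first alpha start in kb on the horizontal axis and pileup in fragments on the vertical axis; WT peaks are blue circles (open where the sequence is single-copy), KO peaks orange squares, bars the annotated genes and black triangles the annotated alpha and gamma starts. Of the 28 WT peaks 12 fall between the beta and gamma arrays, and the 2 KO peaks fall between members.

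In the alpha and gamma arrays some WT peaks lay just before a variable exon. Of the 21 annotated starts, 4 had a WT peak centred within 1 kb upstream, or 19.0% (7.67 to 40.0), against 0.444% of 82148 autosomal transcript starts. This comparison does not take into account that WT peaks were denser over the whole locus, 30.4 per Mb against 9.17. Their centres were 756 and 631 bp before the alpha starts Pcdha11-203 and Pcdha11-202, and 420 and 422 bp before the gamma starts Pcdhgc5-204 and Pcdhgc5-202. All 4 peaks were single-copy, with pileups of 9, 11, 9 and 9 fragments. The Pcdha11-202 peak was the strongest of them, 273 bp wide with a score of 4.27, over sequence of 51.0% GC. The others scored 2.70, 2.70 and 2.39, below the WT median of 3.04. Among the 26 beta starts there was none, and among the 29 starts of the non-clustered genes there were 4, all of them at the beginning of Pcdh15 and through 1 peak. This distance was chosen after the values had been seen.

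The remaining peaks of the arrays were of several kinds. In Pcdha11, 4 of the 6 WT peaks were on sequence with over 1000 copies, including the tallest at 13 fragments. In Pcdhgc5 all 5 were single-copy, 4 of them at the lowest pileup, and 1 lay in an exon 1380 bp after the start of Pcdhgc5-210. Of the genes of 100 to 500 kb, 3.46% had as many WT peaks as Pcdha11 and 5.62% as many as Pcdhgc5.

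In the beta array, whose genes encode their proteins in a single exon, 4 of 22 genes had peaks, and all of these had a pileup of 9. A 95 bp peak lay in the 3′ end of the Pcdhb17 exon, 1371 bp before the start of Pcdhb18, and a 257 bp peak lay in the 3′ end of the Pcdhb18 exon, 2948 bp before the start of Pcdhb19. A further pair, 98 and 76 bp wide, lay 3.69 kb and further past the end of Pcdhb22, on sequence of 25.8% and 25.0% GC. The peaks of the beta genes were thus at or past gene ends, with 1 of them also in the 2 kb before the next gene, and all of them were single-copy. The other 18 beta genes and Pcdha3 had no peak within 5 kb, with Pcdhb16 nearest to one at 5.01 kb and Pcdhb3 furthest at 59.5 kb.

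Among the non-clustered genes, the delta-1 protocadherins Pcdh7 and Pcdh9 had WT peaks and Pcdh1 had none, and of the delta-2 protocadherins Pcdh8 and Pcdh17 had WT peaks and Pcdh10 and Pcdh18 had none. Pcdh12, which is expressed in endothelium, and Pcdh20 also had none. The nearest WT peak was 11.2 kb from Pcdh18, 26.7 kb from Pcdh10, 103 kb from Pcdh20, 421 kb from Pcdh1 and 502 kb from Pcdh12. The class thus held both genes with many peaks and genes far from any.

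Pcdh8, a delta-2 protocadherin of 4.53 kb on chromosome 14 (chr14:80166587-80171119, minus strand), had 3 WT peaks and 0 KO peaks. Only 252 of the 20226 autosomal genes under 10 kb, or 1.25%, had as many WT peaks. The peak in the coding part of its first exon was centred 283 bp after the start, and the next was centred 1079 bp before the start, both with a pileup of 9 and a score of 2.70. The third, centred 3852 bp before the start, was 817 bp wide, the widest of all 40, with a pileup of 10 and a score of 3.05. All 3 were single-copy. The nearest KO peak was 626 kb from the gene.

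Pcdh17, another delta-2 protocadherin of the same chromosome (chr14:84843370-84936867), had 2 WT peaks and 0 KO peaks in a gene of 93.5 kb. Both were in the 5′ untranslated part of its first exon, centred 1010 and 2229 bp after the start, single-copy, with a pileup of 9 and scores of 2.39 and 2.70. Their scores were below the WT median, so Pcdh17 had no WT peak under that threshold. The nearest KO peak was 78.2 kb away.

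The peaks at the 5′ ends of Pcdh8 and Pcdh17 stood on CpG-rich sequence. Over the 500 bp around the peak, GC content was 61.2% at the Pcdh8 exon, 48.4% at the peak 1079 bp upstream of it, and 51.6% and 57.4% at Pcdh17, against a median of 38.0% over autosomal WT peaks. The ratio of observed to expected CpG was 0.75 and 0.52 at these Pcdh8 peaks and 0.60 and 0.80 at those of Pcdh17, against an autosomal median of 0.18. A ratio of at least 0.5 was found at 6 of the 40 WT peaks, or 15%, against 3.70% of autosomal WT peaks at any distance from genes. Besides those at Pcdh8 and Pcdh17, the peaks with this ratio were in Pcdh9 and Pcdhgc5. This threshold was chosen after the values had been seen.

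Over all 40 WT peaks, 8 were on a promoter, from 2 kb upstream to 0.5 kb downstream of any annotated start, which was 20% (10.5 to 34.8) against 12.0% of autosomal WT peaks within 5 kb of a gene. The 8 were the 4 alpha and gamma peaks, the peak before Pcdhb18, the pair at Pcdh8 and a peak at Pcdh15. Of the 9 KO peaks 0 were on a promoter, against 16.4%, and all 9 were in introns. Relative to the members themselves, 29 WT peaks were in introns, 6 in exons and 5 in the flanks.

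Pcdh15, which encodes a protein of the hair-cell tip link, is the longest member at 1550 kb (chr10:72562090-74112482, plus strand) and had the most peaks, 12 in WT and 7 in KO. That was 7.69 WT peaks per Mb (exact Poisson 95% interval 3.97 to 13.4) and 4.49 KO peaks per Mb (1.80 to 9.24). All autosomal genes of at least 500 kb together had 4.83 and 1.09, and chromosome 10 had 13.9 and 2.57. The WT interval held the value of the long genes and lay below that of the chromosome. The KO interval lay above the value of the long genes and held that of the chromosome. Of the 192 autosomal genes of at least 500 kb, 17 had at least as many WT peaks and 4 at least as many KO peaks, Pcdh15 included. This class has no upper limit of length, and the counts were not scaled to length within it. KO peaks made up 36.8% of the peaks of both lists at Pcdh15 (Wilson 95% interval 19.1 to 59.0), against 18.4% over genes of at least 500 kb, 15.7% over chromosome 10 and 14.3% over the autosomes. At scores at or above the WT median this share was 14.3% (2.57 to 51.3), from 1 KO and 6 WT peaks. The 5 KO peaks at the lowest pileup scored 2.96, just below that median of 3.04. With so few peaks, whether the higher KO share rested on peaks with lower scores could not be told.

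Sequence of high copy number was among the WT peaks of Pcdh15 and not among its KO peaks. Copy number is a median and no repeat annotation was used, so single-copy does not mean free of repeats. The single-copy WT peak at chr10:73945454-73945554 still shared a 31-mer with 102 other WT and 5 KO peaks. Of the 12 WT peaks, 5 were single-copy and 5 had over 1000 copies, while the 7 KO peaks were all single-copy. The lists as a whole differed in the same direction, with 29.6% of autosomal WT and 57.7% of autosomal KO peaks single-copy and 34.0% and 7.12% with over 1000 copies. The tallest WT peak, whose 235 bp sequence is shown, had a pileup of 14, a score of 4.36 and a copy number of 4920, and it shared a 31-mer with 296 other WT peaks and 24 KO peaks. The tallest KO peak was 77 bp wide, with a pileup of 12 and a score of 4.59. The other 6 KO peaks had pileups of 9 or 10. GC content over 500 bp ran from 30.8% to 40.4% at the KO peaks, with a median of 33.6%, and from 32.2% to 45.4% at the WT peaks, with a median of 39.3%, so that the ranges overlapped. In position the lists were interleaved along the gene, with the closest WT and KO peaks 13.2 kb apart.

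A single WT peak of Pcdh15 was outside its introns. It was 357 bp wide, with a pileup of 10 and a score of 3.05, single-copy, and centred 871 bp before the first start of the gene. The pseudogene entry begins just after that start and is counted for the same peak. The first KO peak of the gene was 37.1 kb away from it.

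**Figure D4:**
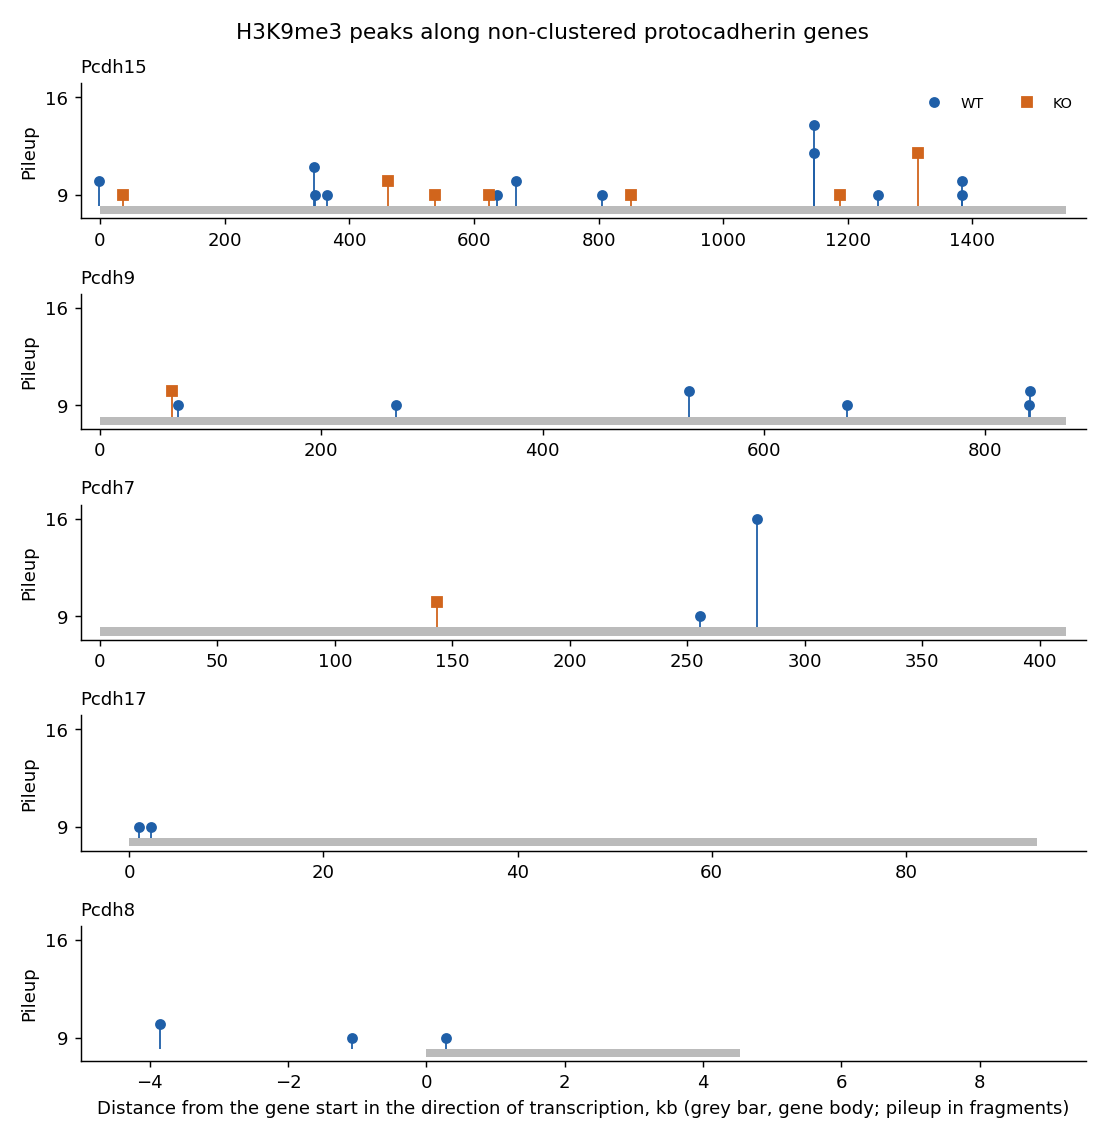
H3K9me3 peaks along the non-clustered protocadherin genes with a peak, with distance from the gene start in kb on the horizontal axes, which differ in scale, and pileup in fragments on the vertical axes; WT peaks are blue circles, KO peaks orange squares and grey bars the gene bodies. WT and KO peaks are interleaved along Pcdh15, and those of Pcdh8 and Pcdh17 lie within 4 kb of the start.

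Pcdh9, a delta-1 protocadherin of 873 kb (chr14:93414731-94287951, minus strand), had 6 WT peaks and 1 KO peak, all in introns. In its length class 52 of 192 genes had at least as many WT peaks and 81 at least 1 KO peak, Pcdh9 included. Its counts were thus ordinary for that class, without scaling to length. Of the WT peaks, 4 had over 1000 copies, with pileups of 9 or 10, and were 529 to 838 kb from the start of the transcript Pcdh9-202. The 2 single-copy WT peaks, both with a pileup of 9, were 265 and 68.4 kb from it. The KO peak, 70 bp wide with a pileup of 10 and a score of 3.88, was 62.8 kb from that start and was single-copy. It lay 5.48 kb from the nearer of these WT peaks.

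Pcdh7, a delta-1 protocadherin of 411 kb (chr5:58109260-58520590, plus strand), had 2 WT peaks and 1 KO peak in its introns. The taller WT peak had a pileup of 16, a fold enrichment of 7.87 over the local background and a score of 9.06, the highest score at any protocadherin gene. The other WT peak had a pileup of 9, a score of 2.70 and a copy number of 1903. The KO peak had a pileup of 10 and a score of 3.88. None of the 3 was on unique sequence. A read that fits many places had been put by the authors at 1 of them at random, so these peaks cannot be assigned to Pcdh7 itself. Among single-copy peaks Pcdh7 therefore had none in either list.

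Other genes of the cadherin superfamily had fewer peaks per Mb in WT. The 23 autosomal genes named Cdh and a number, with a median length of 139 kb, held 18 WT peaks, 3.20 per Mb (exact Poisson 95% interval 1.90 to 5.06), and 5 KO peaks, 0.889 per Mb. A WT peak was within 5 kb of 6 of them, or 26.1% (12.5 to 46.5), and a KO peak of 3. The 11 genes of the Fat, Dchs, Celsr and Clstn families, large relatives of the cadherins, held 3 WT peaks, 1.67 per Mb (0.344 to 4.88), and 0 KO peaks. For both groups the interval of the share of genes with a WT peak held the 33.3% of the protocadherins. The protocadherin genes had a median length of only 3.71 kb, so these shares are of genes of unlike length. The WT density over the protocadherin windows, 10.5 per Mb (7.52 to 14.3), lay above the density intervals of both groups. The protocadherin interval held the 9.17 of the autosomes, so the protocadherins as a whole were not above these. The non-clustered genes alone had 7.93 (5.13 to 11.7), and all autosomal genes of 100 to 500 kb had 5.42. Of 10 genes whose products act at the clustered locus or in H3K9 methylation there, including Ctcf, Smchd1, Wiz, Trim28 and Setdb1 itself, 0 had a peak in either list. The interval, 0 to 27.8%, held the shares of all autosomal genes, 10.7% in WT and 2.72% in KO, so no difference could be told.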

How the data were processed

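H3K9me3 ChIP-seq peak lists of 1 WT and 1 KO iMEF library were used, of the 7 samples of the series. The forebrain samples and the inputs gave no list used here. Per the labels, chromatin was digested with micrococcal nuclease. Per the study's methods, reads were mapped to mm9, duplicates were removed, and a read that fitted several places was put at 1 of them at random. The submitters' processing notes name Bowtie2 2.2.3 and MACS2 2.1.0.20140616. The options of the peak caller are not given in the sources used here. Per the file headers, each list was called on 1 library. The deposited pileup is a coverage signal in fragments. The deposited fold enrichment was read as the ratio of pileup to local background with 1 added to each, and the local background was worked out from it. The deposited significance is given as −log10 of the p-value and of the q-value, and the latter is called the score. Whether starts count from 0 or 1 is not stated, so positions carry an uncertainty of 1 bp. The lists carry no read numbers, and the study's methods give them for the iMEF libraries only as a narrow range, so the precision given here is that of the number of peaks, without replicate error.

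Gene bodies of GENCODE M1 with 5 kb on each side were overlapped with the lists by at least 1 bp. Copy number is the median number of occurrences of the 31-mers of a peak, on both strands, in mm9, and GC content and CpG ratio were taken over 500 bp around the centre. Shares carry Wilson and numbers of peaks exact Poisson 95% intervals. For overlaps between the lists a count of 0 was taken to allow up to 3. With 1 library per group no test was made. Every member with a peak was named, and the others were named in groups by their distance to a peak. Members, lists and comparators were chosen with earlier results of these data known. Interval code was tested on simulated data, where it recovered 200 of 200 planted overlaps among 400 windows with 0 false ones. Computations ran in Python 3.11.15 (scipy 1.17.1, numba 0.67.0, pandas 2.3.3, numpy 2.4.6, matplotlib 3.10.9). No sequence of the clustered locus is printed, and 1 further result is not reported here.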

Additional observations from a re-analysis of the deposited data

How the results depend on the processing

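The main counts were 12 genes and 40 peaks in WT, and 3 genes and 9 peaks in KO, with 0 WT peaks overlapping a KO peak. Scores at or above the WT median left 7 genes and 14 peaks in WT and 3 peaks in KO. A pileup of at least 15 left 1 gene and 1 peak in WT, and 0 genes and 0 peaks in KO. The WT list shortened to the length of the KO list left 2 genes and 3 peaks. A window of 20 kb raised the genes with a KO peak to 8. After the data had been seen, Pcdh15 was left out, which left 2 KO peaks, and single-copy peaks alone were kept, which left 23 WT peaks. The other settings (peaks within 1 kb merged, gene body alone, protein-coding genes only, merged loci, peak centres and another overlap) kept each count within 1.5 times its main value, and the overlap between lists was 0 in every setting run. The lists give no summit, so the centre of a peak was used in its place. No paired analysis was possible because only 1 library stands for each group. The limits are 1 library per group, the low pileup of most peaks, the unequal lengths of the lists and the random placement of reads from repeats. The lowest local background was 1.16 fragments in WT and 1.07 in KO.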

Other observations

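A pair of protocadherin genes on the X chromosome was outside the rule. Pcdh11x, 620 kb long, had 6 WT peaks with pileups of at most 10 fragments and 0 KO peaks, and Pcdh19, 106 kb long, had 0 peaks in either list.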
